A study of Mus musculus with 24 samples.

Results

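The ZBTB zinc finger factors were examined as possible targets of MYT1L in the mouse cortex. The group was taken as the protein-coding genes whose symbol starts with Zbtb and a number, which gave 41 of the 21938 coding genes on the 21 chromosomes of GENCODE M21 (build mm10). Binding of MYT1L, a zinc finger repressor of neurons, had been profiled with CUT&RUN: a nuclease tethered by the antibody cuts out bound chromatin, and the freed fragments are sequenced. The 24 libraries formed 8 groups of 3, with MYT1L and control IgG libraries of cortex from WT embryos at E18.5, and of prefrontal cortex from WT pups at P0, from Myt1l HET adults of 3 months and from WT adults of 3 months, all labelled C57BL/6J, whereas the methods give C57BL/6N for making and breeding the mutant line. The HET animals carried 1 germline allele with a frameshift in Myt1l, whose truncated product was described by the study as missing from the nucleus. The methods, unlike the labels, give prefrontal cortex for E18.5 as well. The libraries of E18.5 and P0 are labelled sequencing run 1 and both adult groups run 2, so age and run cannot be told apart. Some adult titles carry Myt2l or Myt3l, but their descriptions name the Myt1l list and they were taken as MYT1L libraries. The sex of the animals is unknown, and the labels pair no libraries. The methods count cells by animal and divide each cell suspension between the MYT1L antibody and IgG, so that by that account a MYT1L library had an IgG library of the same animal.

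For each MYT1L group the authors deposited 1 list of sites merged over its 3 libraries, holding positions without heights or scores. Counts and shares below therefore carry no replicate error, no p-value could be attached to a difference between lists, and sequencing depth was unknown. The lists held 14477 sites at E18.5, 40698 at P0, 56937 in adult HET and 32145 in adult WT, with median widths of 593, 276, 108 and 167 bp in the same order. The adult HET list was thus the longest and the narrowest of the 4. Because a longer list places sites near more genes, the counts of target genes and of genes with body sites over all 41 members are set beside the shares of all coding genes. The IgG libraries are not analysed here.

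ZBTB proteins pair an amino-terminal BTB domain, which joins copies of the protein and recruits corepressor complexes with histone deacetylases or the ubiquitin ligase scaffold CUL3, with carboxy-terminal C2H2 zinc fingers that read DNA. Many act as repressors that fix the choice between cell lineages, which is best known from blood cells. In the brain, Zbtb18 (also known as RP58) is required for the differentiation and migration of cortical projection neurons, and Zbtb20 for the identity of hippocampal pyramidal neurons and for the formation of astrocytes. One gene that fits the naming rule, Zbtb8os, encodes archease, a cofactor of tRNA ligation. It has no zinc finger, and its symbol records its position beside the Zbtb8 genes.

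MYT1L and its relatives bind the short word AAAGTT or its reverse complement AACTTT. Stretches of sites at 5 leading members are given, outside annotated exons and of at most 300 bases. They are on the plus strand of mm10 from 5′ to 3′, with each copy of the word, on either strand, in capitals. Within the part of a site shared by the named lists, the stretch with the most copies was printed. The printed copies therefore do not show how common the word is in the sites. The first 2 are a GC-rich stretch just upstream of Zbtb18, covered at E18.5, at P0 and in adult WT, and a stretch with 2 copies between the inner starts of that gene, covered at E18.5 and P0:
Zbtb18 upstream, chr1:177441936-177442195: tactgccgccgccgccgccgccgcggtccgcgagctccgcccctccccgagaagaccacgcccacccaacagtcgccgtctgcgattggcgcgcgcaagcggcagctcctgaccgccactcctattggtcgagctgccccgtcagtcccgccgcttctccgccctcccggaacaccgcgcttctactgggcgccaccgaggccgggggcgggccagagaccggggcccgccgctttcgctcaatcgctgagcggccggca
Zbtb18 inner starts, chr1:177443614-177443913: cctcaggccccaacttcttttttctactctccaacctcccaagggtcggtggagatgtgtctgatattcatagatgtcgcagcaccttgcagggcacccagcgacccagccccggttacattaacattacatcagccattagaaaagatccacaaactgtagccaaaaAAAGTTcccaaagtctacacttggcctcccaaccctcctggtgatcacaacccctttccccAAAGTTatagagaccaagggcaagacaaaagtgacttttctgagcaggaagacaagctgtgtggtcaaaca
At Zbtb20 the first is a part of the first promoter covered at E18.5 and in adult WT, without a copy of the word. The second is an intronic stretch among the inner starts, covered at E18.5 and P0, with 2 copies:
Zbtb20 first start, chr16:42875207-42875431: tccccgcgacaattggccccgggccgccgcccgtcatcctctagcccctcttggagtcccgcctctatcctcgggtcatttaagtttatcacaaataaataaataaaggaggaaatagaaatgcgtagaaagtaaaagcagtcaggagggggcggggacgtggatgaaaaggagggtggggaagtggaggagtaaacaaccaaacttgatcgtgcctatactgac
Zbtb20 inner starts, chr16:43504609-43504908: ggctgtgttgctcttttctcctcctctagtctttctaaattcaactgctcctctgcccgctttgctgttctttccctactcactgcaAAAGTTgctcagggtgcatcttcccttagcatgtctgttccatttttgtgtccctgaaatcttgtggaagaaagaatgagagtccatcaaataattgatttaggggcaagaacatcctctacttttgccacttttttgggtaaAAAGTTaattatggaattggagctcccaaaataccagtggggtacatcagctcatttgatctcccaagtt
At Zbtb3 and Zbtb12 they are short stretches that the adult lists of both genotypes share with P0, the Zbtb3 stretch with E18.5 too, each with 1 copy:
Zbtb3 promoter, chr19:8802207-8802443: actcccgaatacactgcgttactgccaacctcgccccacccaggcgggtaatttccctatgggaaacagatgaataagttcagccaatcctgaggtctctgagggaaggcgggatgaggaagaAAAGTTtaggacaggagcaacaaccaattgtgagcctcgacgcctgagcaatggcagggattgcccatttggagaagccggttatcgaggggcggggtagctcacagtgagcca
Zbtb12 downstream, chr17:34897715-34897781: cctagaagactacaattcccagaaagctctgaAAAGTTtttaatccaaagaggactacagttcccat
The last lies in an intron of Zbtb16, covered in both adult lists and in neither younger one, without a copy:
Zbtb16 intron, chr9:48776466-48776605: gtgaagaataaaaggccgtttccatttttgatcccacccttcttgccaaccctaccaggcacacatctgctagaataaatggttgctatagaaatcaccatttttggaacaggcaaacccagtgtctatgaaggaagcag

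ZBTB genes had MYT1L sites near their starts most often at P0 and least often in adult HET. A gene was counted as a target where a site of the list lay within 5 kb of any of its annotated transcription starts. At E18.5, 20 of 41 ZBTB genes (48.8%) were targets, against 31.7% of all coding genes. At P0, 36 of 41 (87.8%) were targets, against 48.7%. In adult HET 9 of 41 (22.0%) were targets, against 30.4% of coding genes, and in adult WT 20 of 41 (48.8%), against 24.6%. The ZBTB share thus lay above the share of all coding genes in the 3 WT lists and below it in the HET list. The HET order depended on the distance, since within 1 kb of a start 6 members (14.6%) had an adult HET site, against 12.1% of coding genes.

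The sites behind these counts numbered 30 at E18.5, 85 at P0, 11 in adult HET and 22 in adult WT. Together they covered 27278, 39624, 1390 and 6159 bp in the same order. Among ZBTB targets the median covered length per gene was 968 bp at E18.5, 636 bp at P0, 118 bp in adult HET and 274 bp in adult WT, against 710.0, 558, 128 and 221 bp over all target genes. At P0, 11 of the 36 ZBTB targets (30.6%) had 3 or more sites, against 20.9% of all P0 targets, whereas none of the 9 adult HET targets did, against 7.74% of all HET targets.

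**Figure D1:**
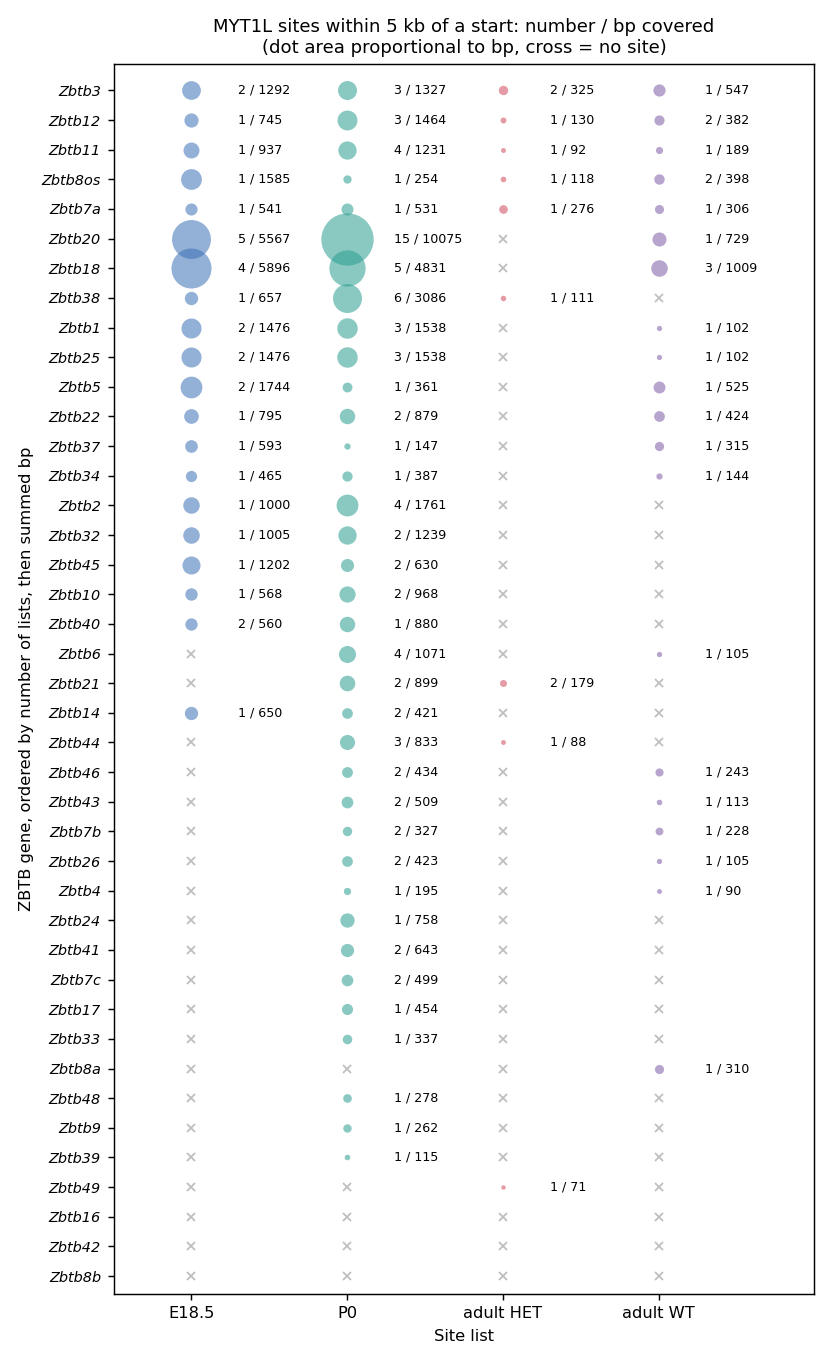
Each row is a ZBTB gene and each column a site list; the dot area is proportional to the bp covered by MYT1L sites within 5 kb of a transcription start, the numbers give sites and bp, and a cross marks no site. Zbtb20 at P0 has the largest dot with 15 sites over 10075 bp, and the adult HET column holds 9 small dots of at most 325 bp.

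The wider neighbourhood of gene type was looked at in the same way. CpG-rich starts are common among these genes: 32 of 41 members (78.0%) had one, against 38.4% of coding genes. Only the outermost start of a gene was classed. It counts as CpG-rich when the 1 kb around it has at least 55% GC and an observed over expected CpG ratio of at least 0.6. A target site can lie at another start, as at Zbtb12 and Zbtb38 at E18.5. Among genes with a CpG-rich start, ZBTB members were targets in 50.0% at E18.5, 90.6% at P0, 18.8% in adult HET and 43.8% in adult WT, against 50.6%, 73.7%, 36.1% and 33.3% of coding genes. The excess at E18.5 was therefore not seen within this class, while the P0 and adult WT shares stayed above and the adult HET share below those of other CpG-rich genes. The 9 members with another kind of start were targets in 4, 7, 3 and 6 cases, or 44.4%, 77.8%, 33.3% and 66.7%, against 19.8%, 33.1%, 26.8% and 19.2% of such coding genes. The number of annotated starts per gene had the same median of 3 in ZBTB and in all coding genes. The median gene body was 19.3 kb against 17.4 kb. Genes were also split into those with 1 to 2, 3 to 5 and 6 or more starts. The P0 and adult WT shares of ZBTB lay above those of coding genes in each class. The E18.5 share did so except at 6 or more starts, with 41.7% against 50.9%. The adult HET share lay well below at 3 to 5 starts, with 2 of 19 members against 30.2%. It lay close at 1 to 2 starts (2 of 10, against 21.5%) and at 6 or more (41.7%, against 44.0%).

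Other zinc finger families gave a different profile over the lists. The 365 genes named Zfp with a number, mostly C2H2 proteins without a BTB domain, were targets in 47.4% at E18.5, 69.0% at P0, 33.7% in adult HET and 31.5% in adult WT. The 29 KLF and SP genes, whose proteins bind GC boxes, reached 31.0%, 55.2%, 37.9% and 44.8%. The ZBTB share was the highest of these 3 families at E18.5, P0 and in adult WT, narrowly at E18.5, and the lowest in adult HET. Of 8 further BTB zinc finger genes with other symbols (Bcl6, Bcl6b, Hic1, Hic2, Mynn, Patz1, Gzf1 and Zfp131), 6 were targets at E18.5, 8 at P0, 3 in adult HET and 2 in adult WT. Bcl6, a repressor of Notch genes during cortical neurogenesis, had 3 sites over 4170 bp at E18.5, 7 over 4541 bp at P0, 3 over 281 bp in adult HET and none in adult WT.

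**Figure D2:**
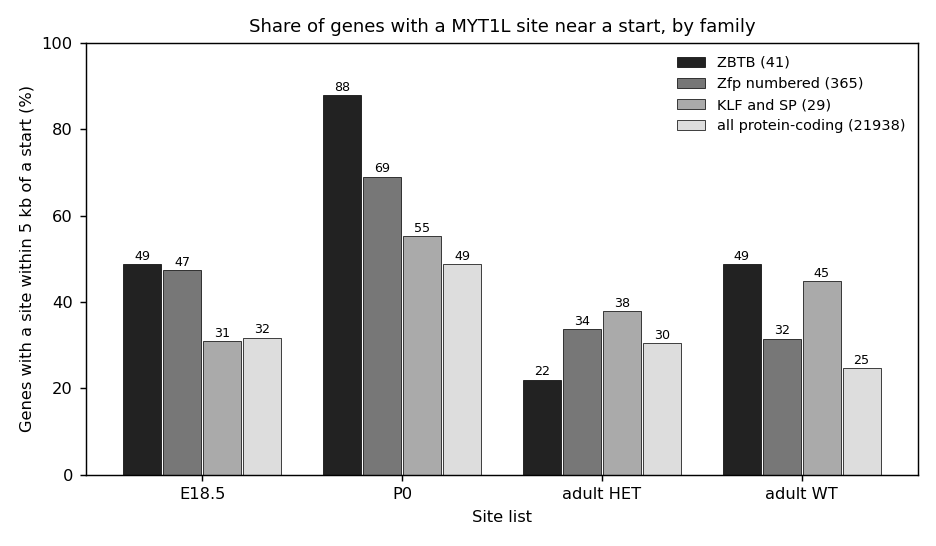
Bars give the percentage of genes with a MYT1L site within 5 kb of a transcription start in each list, for ZBTB genes, numbered Zfp genes, KLF and SP genes and all protein-coding genes, with the number of genes in brackets. ZBTB stands at 48.8% at E18.5, 87.8% at P0, 22.0% in adult HET and 48.8% in adult WT.

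The P0 list, with 36 of the 41 members, took in most targets of the others. The 20 E18.5 targets were also P0 targets, against 94.2% of all E18.5 target genes, as were 8 of 9 adult HET targets (88.9%, against 62.9%) and 19 of 20 adult WT targets (against 73.2%). No member was a target at E18.5 alone. That pattern was rare, at 135 of the 21938 coding genes (0.615%), so its absence among 41 members says little. At P0 alone 8 members (19.5%) were targets, against 2196 of the 21938 coding genes: Zbtb7c, Zbtb9, Zbtb17, Zbtb24, Zbtb33, Zbtb39, Zbtb41 and Zbtb48. A further 8 (19.5%, against 6.02% of coding genes) were targets at E18.5, P0 and in adult WT and lacked a site near a start in adult HET, namely Zbtb1, Zbtb5, Zbtb18, Zbtb20, Zbtb22, Zbtb25, Zbtb34 and Zbtb37. Another 6 (14.6%, against 2.66%) were targets at P0 and in adult WT, namely Zbtb4, Zbtb6, Zbtb7b, Zbtb26, Zbtb43 and Zbtb46, and 6 (14.6%, against 10.9%) at E18.5 and P0, namely Zbtb2, Zbtb10, Zbtb14, Zbtb32, Zbtb40 and Zbtb45. Beside the 5 members in all lists and the 3 in none, described below, 5 members were left: Zbtb38 at E18.5, P0 and in adult HET, Zbtb21 and Zbtb44 at P0 and in adult HET, Zbtb49 in adult HET alone and Zbtb8a in adult WT alone. In this order the 4 patterns held 2.44%, 4.88%, 2.44% and 2.44% of members, against 5.72%, 4.05%, 8.53% and 3.71% of coding genes.

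Zbtb8b, Zbtb16 and Zbtb42 (7.32%, against 35.3% of coding genes) had no site within 5 kb of a start in any list. Zbtb8b and Zbtb42 had none in the gene body either. Zbtb42 is a small gene of 3.92 kb with a CpG-rich start. The members closest to the 5 kb limit were, on the inside, Zbtb32 at E18.5 (3132 bp from a start to the site), Zbtb39 at P0 (4785 bp), Zbtb38 in adult HET (3302 bp) and Zbtb7b in adult WT (3627 bp). On the outside they were Zbtb4 at E18.5 (6042 bp), Zbtb8b at P0 (14581 bp), Zbtb9 in adult HET (5848 bp) and Zbtb17 in adult WT (5003 bp).

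Targets in all 4 lists were 5 of 41 (12.2%), against 7.22% of coding genes. At Zbtb3 the promoter carried overlapping sites in every list, of 879 bp at E18.5, 910 bp at P0, 237 and 88 bp in adult HET and 547 bp in adult WT. The site of 237 bp in adult HET lay inside the other 3 and is the Zbtb3 sequence printed above. At Zbtb7a, which encodes the factor LRF that silences fetal globin genes, a site upstream of an inner start measured 541 bp at E18.5, 531 bp at P0, 276 bp in adult HET and 306 bp in adult WT, and these 4 sites overlapped one another. Zbtb12 had its E18.5 site (745 bp) upstream of its inner start, where P0 had an overlapping site of 313 bp. About 3 kb past that start, downstream of the gene, the P0, adult HET and adult WT lists held sites of 988, 130 and 241 bp that overlapped one another, and E18.5 had none. The HET and WT sites there began at the same base, position 34897652 of chromosome 17.

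Zbtb11 and Zbtb8os made up the rest. The promoter of Zbtb11 held 1 site of 937 bp at E18.5 and 4 sites in the P0 neighbourhood, but the site of 92 bp in adult HET and that of 189 bp in adult WT lay beside each other without overlap. At Zbtb8os the start was covered by 1585 bp at E18.5, and the sites of 118 bp in adult HET and 304 bp in adult WT lay within it. In 4 of these 5 genes the sites also lay within 5 kb of a start of another coding gene: Polr2g at Zbtb3, Rbbp4 at Zbtb8os, Rpl24 at Zbtb11, and C2 and Ehmt2 at Zbtb12. Of the 5, only Zbtb7a had sites with no other coding gene that close. Over all members, 12 of 20 E18.5 targets, 24 of 36 P0 targets, 5 of 9 adult HET targets and 11 of 20 adult WT targets had a site away from the starts of other coding genes. The same share over all target genes was not computed, so these counts cannot be called particular to ZBTB genes. Zbtb1 and Zbtb25 are divergent neighbours and share every site counted for them, and Zbtb6 and Zbtb26 share their adult WT site and 2 of their P0 sites.

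Zbtb18 had among the broadest MYT1L coverage of any gene in the 3 WT lists and no site within 5 kb in adult HET. The gene spans chr1:177442351-177450764 on the plus strand, 8.41 kb with 12 annotated starts in its first 4 kb. Within 5 kb of these starts there were 4 sites over 5896 bp at E18.5, 5 over 4831 bp at P0, 0 in adult HET and 3 over 1009 bp in adult WT. By covered length this was rank 14 of 6945 E18.5 targets, rank 29 of 10677 P0 targets and rank 96 of 5400 adult WT targets. The ranks were not adjusted for the number of starts. The first site lay upstream of the first start and measured 1428 bp at E18.5 (chr1:177440885-177442312), 1421 bp at P0 and 260 bp in adult WT. The second spanned the inner starts and measured 2706 bp at E18.5 (chr1:177443197-177445902), 2009 bp at P0 and 629 bp in adult WT. In both places the adult WT site lay inside the E18.5 and the P0 site.

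The remaining sites of Zbtb18 differed between ages. E18.5 had a site of 827 bp with its midpoint in the 3′ UTR and one of 935 bp at the end of the gene, and neither overlapped a site of another list. P0 had 3 sites running from the 5′ UTR into the coding exon (702, 274 and 425 bp). The first overlapped the third adult WT site of 120 bp and also the end of the E18.5 site of 2706 bp. No adult HET site was found within 5 kb, and 1 was found when the distance was widened to 10 kb. The HET list as a whole was longer than the adult WT list, which held 3 sites here.

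**Figure D3:**
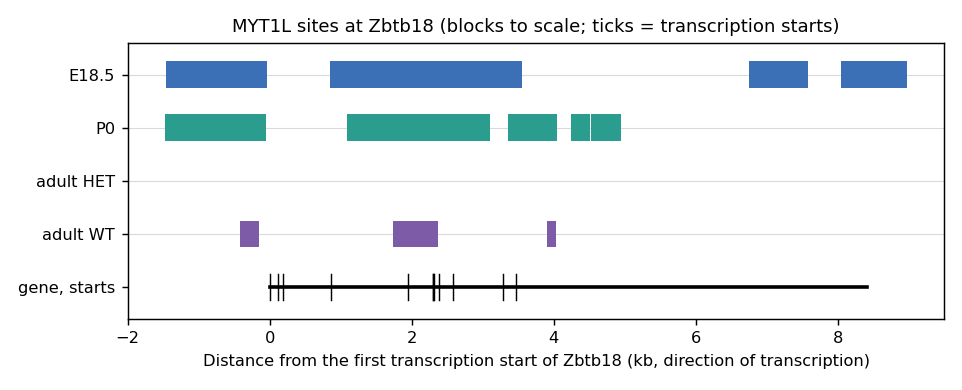
Blocks are the MYT1L sites of each list, drawn to scale along the distance in kb from the first start of Zbtb18, with the gene and its 12 starts on the bottom line. The broad sites at E18.5 and P0 each contain a narrower adult WT site, and the adult HET line is empty.

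The word AAAGTT was dense at Zbtb18. Its sites held 13 copies at E18.5, 15 at P0 and 4 in adult WT, or 2.20, 3.10 and 3.96 copies per kb, against 0.820, 0.882 and 0.779 copies per kb over the sites near all coding genes in the same lists. The site over the inner starts alone held 9 copies at E18.5 and 8 at P0. The Zbtb18 sites had 44.3% GC at E18.5 and 46.4% at P0, against 53.2% and 52.9% over all sites near coding genes, and 49.8% in adult WT, against 48.5%. The part of base composition in the density was not tested. Without Zbtb18, the sites of the other members held 0.514 copies per kb at E18.5, 0.891 at P0, 2.16 in adult HET (3 copies in 1390 bp) and 0.971 in adult WT.

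Across all members the share of sites with the word near the midpoint was close to that elsewhere. Within 75 bp of the midpoint it occurred in 4 of 30 E18.5 sites (13.3%, exact 95% interval 3.76 to 30.7), 12 of 85 P0 sites (14.1%, 7.51 to 23.4), 2 of 11 adult HET sites (18.2%, 2.28 to 51.8) and 4 of 22 adult WT sites (18.2%, 5.19 to 40.3). Over all sites near coding genes the shares were 11.2%, 12.5%, 13.1% and 11.3%, each inside the interval of the ZBTB sites. These intervals cover counting error alone. In the RefSeq promoter windows, which reach from 250 bases before a start to 50 after it, 36 of the 41 genes were matched and 11 of their 49 windows (22.4%) held the word on either strand, against 14.1% of 32851 windows. By gene this was 7 of 36 (19.4%), against 15.9% of 27025 genes. The 7 genes were Zbtb2, Zbtb3, Zbtb8b, Zbtb17, Zbtb18, Zbtb20 and Zbtb37, of which Zbtb8b had no site in any list.

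Zbtb20 had the largest covered length of the ZBTB genes at P0. The gene spans chr16:42875881-43642602 on the plus strand, 767 kb with 19 starts in 6 groups more than 10 kb apart. Within 5 kb of a start there were 5 sites over 5567 bp at E18.5, 15 over 10075 bp at P0, 0 in adult HET and 1 over 729 bp in adult WT. By covered length Zbtb20 was rank 17 of the E18.5 targets, rank 6 of the P0 targets and rank 309 of the adult WT targets, the last shared by 3 genes. These ranks were not adjusted for the number of starts, and the windows around 6 groups of starts take in more sequence than those around 1 start. With the outermost start alone Zbtb20 had 2 sites at E18.5 and 4 at P0. At the first start there were 2 sites at E18.5, 4 at P0, 0 in adult HET and 1 in adult WT. At the second group of starts, 31.5 kb further on, 4 sites were found at P0 and 0 in the other lists. At the last group of 7 starts, 628 kb from the first, there were 3 sites over 2923 bp at E18.5 and 7 over 6612 bp at P0, including the widest of all ZBTB sites at P0, of 4067 bp (chr16:43502727-43506793), and 0 in both adult lists. The 3 groups between them had no site within 5 kb in any list.

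The adult WT site at the first start (chr16:42875207-42875935) overlapped the E18.5 site of 1408 bp and no P0 site, the nearest P0 site beginning 265 bp past that start. It rests on 1 annotated start of a transcript that is not protein-coding, and with starts of protein-coding transcripts alone Zbtb20 was not a target in adult WT. The site of 4067 bp at P0 overlapped E18.5 sites of 851 and 953 bp.

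Within its body Zbtb20 held 9 sites at E18.5, 36 at P0, 20 in adult HET and 7 in adult WT. Per 100 kb these were 1.17, 4.70, 2.61 and 0.913 sites. Among the 230 coding genes of at least 500 kb it ranked 15 at E18.5, 2 at P0, 113 in adult HET and 164 in adult WT, where the medians of these genes were 0.409, 1.26, 2.58 and 1.25 sites per 100 kb. Zbtb20 thus stood near the top of long genes at E18.5 and P0 and near or below their middle in both adult lists. All 9 E18.5 sites in the body overlapped a P0 site, against 88.6% of E18.5 sites in the bodies of all coding genes. Of the 20 adult HET sites none overlapped a site of another list, against 9.51% of adult HET sites in the bodies of all coding genes. Of the 7 adult WT sites, 1 overlapped another list (14.3%, against 21.9%), the one at the first start. The HET sites lay in introns, at least 6199 bp from any start, and measured 58 to 220 bp, with a median of 120.0 bp. In adult WT the median was 151 bp, and at P0 294 bp.

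**Figure D4:**
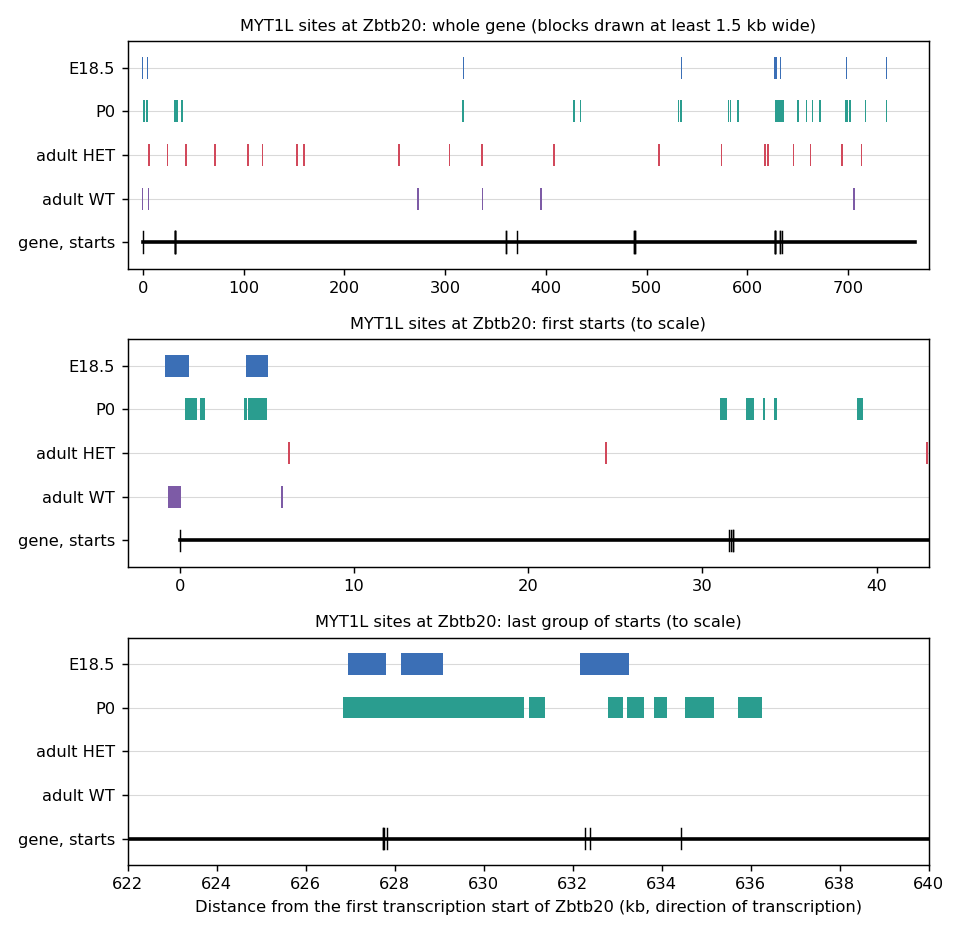
Blocks are the MYT1L sites of each list along the distance in kb from the first start of Zbtb20, for the whole gene (blocks at least 1.5 kb wide so that they can be seen), for the first starts and for the last group of starts (both to scale). Of 9 E18.5 sites 5 lie within 5 kb of a start, at the first and last groups. Of 36 P0 sites 15 do, at the first, second and last groups. The other sites of both ages and the 20 adult HET sites lie in introns further from a start.

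**Figure D5:**
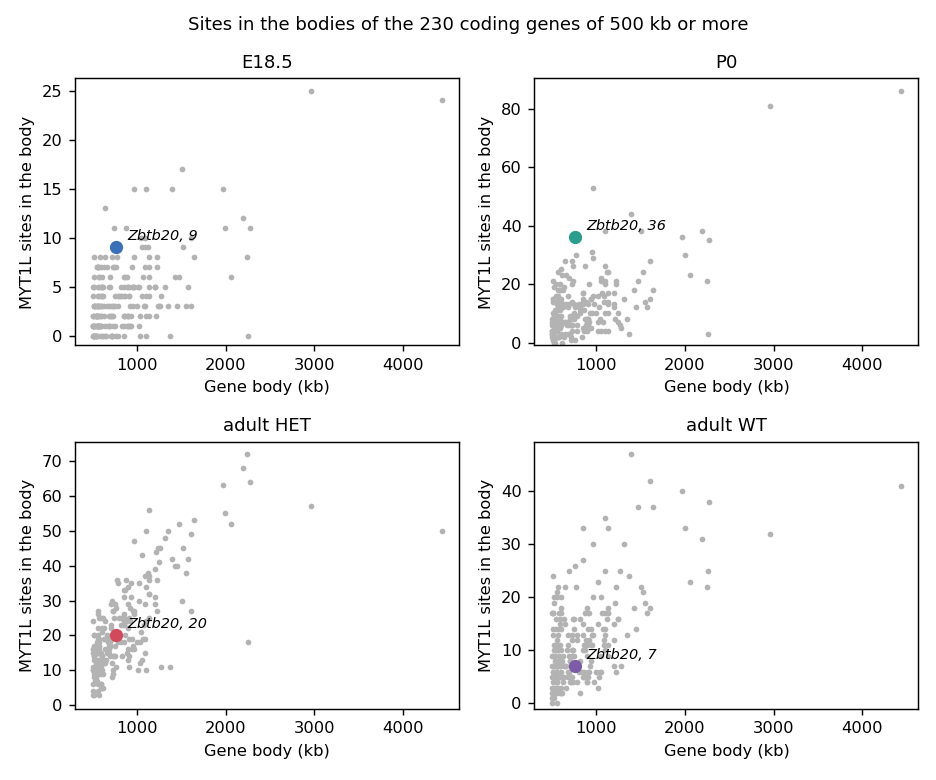
Each point is 1 of the 230 coding genes of 500 kb or more, by gene body length in kb and number of MYT1L sites in the body, in 1 panel per list with its own vertical scale. Zbtb20, in colour, has 9 sites at E18.5, 36 at P0, 20 in adult HET and 7 in adult WT.

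Genes whose number of sites within 5 kb was most like that of each gene were ranked by the summed absolute difference of log2(count + 1) over the 4 lists. For Zbtb18 these were Hist1h3b (0.26), Marcks (0.42), Jun (0.91), Letm2 (0.96) and Neurod6 (0.96), all with 0 sites in adult HET. For Zbtb20 they were Anp32a (0.78), Arid5b (0.83), Sox2 (1.05), Pax6 (1.09) and Efnb2 (1.09), also with 0 in adult HET, and 6 genes lay within the last value. Marcks, for example, had 4 sites at E18.5, 5 at P0, 0 in adult HET and 2 in adult WT.

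The other members with a known role in the nervous system were Zbtb16 and Zbtb45. Zbtb45, a regulator of glial differentiation, had 1 site over 1202 bp at E18.5, 2 sites over 630 bp at P0 and none within 5 kb in either adult list. Zbtb16, which encodes PLZF, known from promyelocytic leukaemia and from natural killer T cells, had no site near its 2 starts. Its 182 kb body held 1 site at E18.5, 3 at P0, 8 in adult HET and 8 in adult WT, or 4.40 sites per 100 kb in each adult list, against 2.20 in adult HET and 1.45 in adult WT over all coding genes. Of the 8 sites in each adult list 4 overlapped the other genotype's list (50.0%), against 5.89% of HET and 9.26% of WT sites in the bodies of all coding genes. None of these 16 adult sites overlapped a younger list, and over all coding genes such overlaps were also few, at 3.72% with E18.5 and 4.74% with P0 for HET body sites and 11.8% and 13.3% for WT body sites. The shared intronic sites measured 321, 170, 154 and 133 bp in adult HET and 140, 97, 725 and 411 bp in adult WT, in matching order.

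The methyl-CpG binding members are Zbtb33 (Kaiso), Zbtb4 and Zbtb38. Zbtb38 was a target at E18.5 with 1 site over 657 bp, at P0 with 6 sites over 3086 bp and in adult HET with 1 site over 111 bp. Its P0 coverage was the third largest of the members, after Zbtb20 and Zbtb18. Zbtb38 had no adult WT site within 5 kb, but the nearest lay only 5166 bp from a start. Zbtb4 had 1 site of 195 bp at P0 and 1 of 90 bp in adult WT, at different positions, and Zbtb33 had 1 of 337 bp at P0.

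Among members known from blood cells, Zbtb7a was a target in every list, and Zbtb17 (MIZ1, a partner of MYC) at P0 alone with 454 bp. Zbtb1, needed for lymphocyte development, had 1476 bp at E18.5, 1538 bp at P0, none in adult HET and 102 bp in adult WT, in sites shared with Zbtb25. Zbtb7b (ThPOK, the factor of CD4 T cells) had 2 sites over 327 bp at P0 and 1 over 228 bp in adult WT, and Zbtb46, a marker of dendritic cells, had 434 bp at P0 and 243 bp in adult WT. The adult WT site of Zbtb46 overlapped its P0 site, and that of Zbtb7b did not. Zbtb32 had 1005 bp at E18.5 and 1239 bp at P0 and no adult site. The group counted 3, 6, 1 and 4 targets of 6 at E18.5, at P0, in adult HET and in adult WT. Over all 41 members the shares were 48.8%, 87.8%, 22.0% and 48.8% in the same order. Over all coding genes they were 31.7%, 48.7%, 30.4% and 24.6%. A difference between these 6 genes and the other members was not tested. Zbtb24, mutated in human immunodeficiency with centromeric instability, and Zbtb48, a telomere-binding protein, were targets at P0 alone, with 758 and 278 bp.

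The number of members with a site in the gene body was the same in both adult lists, unlike the number with a site near a start. At E18.5, 20 of 41 members (48.8%) had a site in the gene body, against 32.7% of coding genes, and at P0 32 of 41 (78.0%), against 48.4%. In adult HET 15 members (36.6%) had one, against 36.7%, and in adult WT 15 members (36.6%), against 29.6%. These were mostly different genes, since only Zbtb3, Zbtb7a, Zbtb16, Zbtb20, Zbtb25 and Zbtb38 had a body site in both adult lists. Distinct body sites numbered 31, 88, 49 and 32. Per 100 kb of ZBTB gene body there were 1.44, 4.15, 2.28 and 1.49 sites, against 0.968, 2.39, 2.20 and 1.45 over all coding genes. Zbtb20 makes up 767 of the 2145 kb of summed ZBTB gene body. Without it the densities were 1.60, 3.84, 2.10 and 1.81 per 100 kb. After Zbtb20 and Zbtb16, the members with most body sites were Zbtb38, with 1 at E18.5, 6 at P0, 3 in adult HET and 2 in adult WT, and Zbtb18, with 3 at E18.5, 4 at P0, 0 in adult HET and 2 in adult WT.

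In the adult prefrontal cortex, 5 members were targets in both HET and WT (Zbtb3, Zbtb7a, Zbtb8os, Zbtb11 and Zbtb12), 4 in HET and not WT (Zbtb21, Zbtb38, Zbtb44 and Zbtb49) and 15 in WT and not HET. Over all 21938 coding genes the numbers were 2580 in both, 4090 in HET and not WT and 2820 in WT and not HET. The shared genes were 55.6% of HET targets and 25.0% of WT targets, against 38.7% and 47.8% over all coding genes. The 4 HET targets had sites of 71 to 111 bp, none of which overlapped a site of another list. Of the 5 shared targets 4 had overlapping sites in both genotypes, all but Zbtb11, against 33.1% of the genes that were targets in both lists. Counted by site, 5 of 11 HET sites overlapped a WT site (45.5%, exact 95% interval 16.7 to 76.6), against 9.08% of HET sites near all coding genes, and 4 of 22 WT sites overlapped a HET site (18.2%, 5.19 to 40.3), against 11.4%. The intervals treat sites as independent, but 2 of these 5 HET sites lay in 1 WT site at Zbtb3. They are not replicates, so the intervals do not test a difference from other genes. The 11 HET sites near ZBTB starts also lay mostly at promoters of any coding gene (7 of 11, 63.6%, interval 30.8 to 89.1), against 23.1% of HET sites near coding genes. Here a promoter runs from 1 kb before to 100 bp after a start. The mean share of repeat sequence was 5.14% in these 11 sites and 22.4% in HET sites near coding genes. In adult WT 13 of 22 ZBTB sites (59.1%, 36.4 to 79.3) were at promoters, against 38.1%, and the mean repeat share was 11.5%, against 15.8%. Promoters of the ZBTB gene itself held 6 of the HET sites and 11 of the WT sites.

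Positions were compared between ages as well. Of the 30 E18.5 sites 25 overlapped a P0 site (83.3%, interval 65.3 to 94.4), against 88.4% near all coding genes, and 18 of the 20 genes targeted at both ages had an overlapping pair, with Zbtb14 and Zbtb37 as the exceptions (90.0%, against 6215 of 6544 such coding genes). Between E18.5 and adult WT, 9 of 13 such members (69.2%) had an overlapping pair, against 66.5%. Of the 22 adult WT sites 10 overlapped a P0 site (45.5%, 24.4 to 67.8), against 26.7% near coding genes. However, these 10 fell on few genes: of the 19 members targeted at P0 and in adult WT, 7 (36.8%) had an overlapping pair (Zbtb3, Zbtb7a, Zbtb11, Zbtb12, Zbtb18, Zbtb22 and Zbtb46), against 50.0% of all such genes. At Zbtb5, Zbtb20 and Zbtb37 the adult WT promoter site overlapped an E18.5 site and not a P0 site. At Zbtb5, for instance, it measured 525 bp in adult WT and 937 bp at E18.5, whereas the P0 site (361 bp) lay about 3 kb upstream.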

How the data were processed

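Per the labels and the study's methods, the authors processed CUT&RUN reads with nf-core/cutandrun 1.0 on build mm10 and deposited, per MYT1L group, 1 list of sites merged over 3 libraries. The deposited values are positions (first and last base of a site), without a score. How sites were called, at which threshold and with what part for IgG is not given in the sources used here. Positions in the text count from 1.

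Sites were compared with 21938 protein-coding genes of GENCODE M21 (13 mitochondrial genes left out) in Python 3.11.15 with numpy 2.4.6, scipy 1.17.1 and matplotlib 3.10.9. Distances run from the site's nearest edge to any annotated transcript start. Sites sharing at least 1 bp overlapped. Intervals for shares of sites are exact Clopper-Pearson 95% intervals, which treat sites as independent. Sequence came from the RefSeq GRCm38 assembly. The counting was checked on simulated sites at known distances. No test between lists was possible.

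Named genes were Zbtb18, Zbtb20, targets in all 4 lists, members with the most covered bp or body sites, members with no site or in 1 list, and those of the role groups. Members and lists were chosen with earlier results of these data known. A list of genes for partners of the BTB domain is not reported here.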

Additional observations from a re-analysis of the deposited data

How the results depend on the processing

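No paired analysis was possible because each deposited list merges the 3 libraries of a group and holds no value per library, so no library could be left out either. Of 36 alternative counts of target genes 31 stayed within 1.5 times the reported count. The exceptions were adult HET with 14 targets at 10 kb (34.1%, against 43.8% of coding genes), 4 with the outermost start alone (9.76%, against 21.1%) and 5 when sites had to exceed their list's median width (12.2%, against 3958 of 21938 coding genes), and adult WT with 10 targets at 1 kb (24.4%, against 13.9%) and 13 with wider sites (31.7%, against 15.4%). The WT share was above that of coding genes under every alternative run. The HET share was below it under each except 1 kb, where 6 members (14.6%) stood against 12.1%. Wider sites alone also left 23 gene-body sites in adult HET and 17 in adult WT. With sites under 500 bp apart counted as shared, 14 P0 sites matched adult WT. Within 250 bp of the midpoint AAAGTT occurred in 25.9% of P0 sites, below the 30.6% of all P0 sites near coding genes. Counting copies over whole sites gives a rate, 0.880 per kb at E18.5, 1.16 at P0, 2.16 in adult HET and 1.46 in adult WT, against 0.820, 0.882, 0.929 and 0.779 over all sites near coding genes, and the adult values rest on 3 and 9 copies. At Zbtb18 and Zbtb20, 52 of 64 alternative counts were within that margin. With the outermost start alone, Zbtb20 had 2 sites at E18.5 and 4 at P0, and Zbtb18 had 2 at E18.5. Within 1 kb, Zbtb20 had 9 sites at P0 and Zbtb18 had 2 at E18.5. With coding or basic transcripts alone, Zbtb20 had 3 sites at E18.5 and 0 in adult WT. At 10 kb, adult HET had 1 site at Zbtb18 and 3 at Zbtb20, and adult WT had 2 at Zbtb20. Chosen after seeing the data, starts of basic transcripts alone gave 20, 36, 6 and 19 targets, and leaving out Zbtb8os gave 19, 35, 8 and 19, in list order.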
